A study of Danio rerio with 34 samples.

Results

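In 5 adult zebrafish testis RNA samples, all from fish exposed to PCB126, a large part of the sequenced RNA came from few genes. They were selected on a measured value: in each of the 12 exposed RNA samples, the share of all counts held by the 10 most counted genes was computed, and the 5 samples at 6% or more, called concentrated here, were set against the 7 below it, called even. The 5 are replicates 4 and 6 at 3 nM and replicates 1, 5 and 6 at 10 nM. The even samples are 3 nM replicates 1, 2, 3 and 5 and 10 nM replicates 2, 3 and 4. The series holds 34 samples, of which 18 are RNA samples. Groups of 6 adult fish testis samples received the carrier DMSO, 3 nM PCB126 or 10 nM PCB126, with 24 h of exposure and then 7 days in clean water before sampling. The series calls its replicates biological, and no strain, fish age or pooling is given in the labels, so p-values measure the spread between these samples. The remaining samples hold DNA methylation data and were not used here.

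PCB126 is a dioxin-like polychlorinated biphenyl. It binds the aryl hydrocarbon receptor (AHR), a transcription factor that switches on detoxifying enzymes such as cytochrome P450 1A. The zebrafish testis consists of cysts in which Sertoli cells surround germ cells that develop in step, from spermatogonia through meiosis to flagellated sperm, with androgen-producing Leydig cells between them. Every RNA sample shares a fixed number of reads among its genes, so a larger share for some genes leaves a smaller share for others. Levels are given as CPM, counts per 1000000 (1 M) of a library total scaled by the TMM method, and a difference is in log2 CPM. Because whole tissue was sampled, fewer cells of a type and less RNA per cell cannot be told apart.

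Library totals ran from 16.2 to 29.8 M counts in DMSO, 21.2 to 29.1 M in the even samples and 18.6 to 28.3 M in the concentrated samples. Depth did not separate the concentrated from the even samples. The mean difference in total within concentrations was -0.283 M, with p = 0.89 by a two-sided exact permutation test over 300 arrangements. Markers of testis were present in all 18 samples. The germ cell helicase DDX4 (vasa) ran from 1073 to 1456 CPM in the concentrated samples and from 1509 to 1835 CPM in the even samples, and the Sertoli cell hormone amh from 209 to 578 CPM and from 222 to 516 CPM. CYP1A1, the zebrafish cyp1a gene, was at 2.43 to 4.85 CPM in DMSO and at 409 to 2542 CPM in the 12 exposed samples, so no library went against its exposure label.

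The shares behind the choice were 6.36% and 6.76% in 3 nM replicates 4 and 6 and 8.82%, 9.50% and 8.01% in 10 nM replicates 1, 5 and 6. The even samples held 4.02% to 5.20%, with a median of 4.21%, and the DMSO samples 3.45% to 4.70%, with a median of 3.97%. The nearest values on either side of the threshold were 6.36% inside and 5.20% outside, in 3 nM replicates 4 and 1. From the same counts, the smallest number of genes that together held 50% of all counts was 916 and 947 in 3 nM replicates 4 and 6 and 770, 694 and 847 in the 10 nM samples. Even samples needed 1176 to 1386 genes and DMSO samples 1229 to 1420. This number includes the 10 most counted genes and is not independent of the choice. The even samples overlapped DMSO on both measures. The number of genes with at least 1 count differed less, at 26916 to 27956 in the concentrated samples, 27788 to 28418 in the even samples and 27523 to 28410 in DMSO.

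By labelled group, the share averaged 6.6% ± 2.44 at 10 nM, 5.10% ± 1.21 at 3 nM and 4.0% ± 0.44 in DMSO (SD, n = 6 each). The mean of the 12 exposed samples was 1.85 percentage points above that of DMSO, with 2.60 points at 10 nM and 1.1 points at 3 nM. These differences carry no test, because the share is the value that chose the samples and was taken up with the high values of exposed samples already known. Each exposed group holds both kinds of sample, so the group means describe no single sample well: no sample at 10 nM lay between 4.56% and 8.01%.

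**Figure D1:**
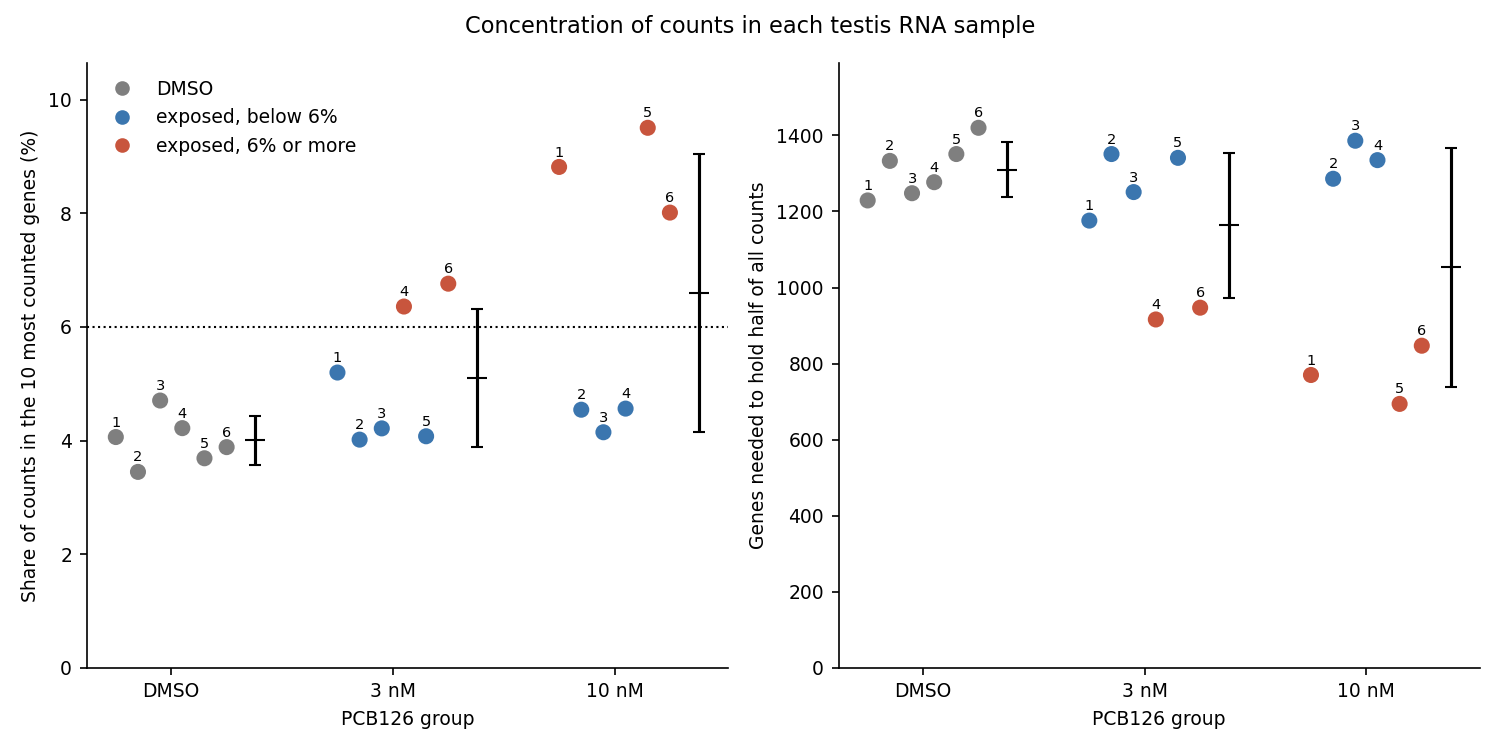
Share of counts in the 10 most counted genes (left, percent) and smallest number of genes that hold 50% of all counts (right) in each of the 18 RNA samples, by group, with replicate numbers; bars give the mean and SD of the 6 samples of a group, and the dotted line marks 6%. The 5 concentrated samples lie at 6.36% to 9.50% and need 694 to 947 genes, and the even samples lie among the DMSO samples apart from 3 nM replicate 1, at 5.20% and 1176 genes.

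Across the 12 exposed samples, 22 genes were among the 10 most counted of at least 1 sample. Of these, 5 were in every top 10: the mitochondrial genome genes MT-CO1, MT-CO2 and MT-CO3, which encode the core of cytochrome c oxidase, MT-ATP6 of the ATP synthase, and the translation elongation factor eef1a1l1. MT-CYB, the cytochrome b gene, was in the top 10 of 4 concentrated and 1 even sample. PIWIL1, the Piwi protein that guards the germline with small RNAs, was in none of the 5 and in 4 of the 7.

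MT-CO2 held 0.869%, 1.07%, 1.54%, 1.99% and 0.926% of all counts in the 5 samples, in the order 3 nM replicates 4 and 6 and 10 nM replicates 1, 5 and 6, which is kept for every set of 5 values below. In the even samples it held 0.323% to 0.563%, with a median of 0.377%. The sets did not overlap, and 10 nM replicate 5 was highest. The gene si:dkey-238c7.12 held 0.842%, 0.904%, 1.21%, 1.31% and 0.731%, against 0.257% to 0.458% in the even samples. The ribosomal protein gene rpl32 held 0.292%, 0.318%, 0.427%, 0.401% and 0.220%, against 0.128% to 0.162%. Both were above every even sample in each of the 5. PIWIL1 held 0.149%, 0.191%, 0.135%, 0.126% and 0.139%, against 0.241% to 0.378%, and HSP90AB1, a chaperone, 0.423%, 0.370%, 0.298%, 0.369% and 0.488%, against 0.513% to 0.608%. As shares of all counts, these abundant genes were below every even sample in all 5. On the scaled level PIWIL1 stayed below every even sample, at 1516 to 2057 CPM against 2335 to 3452 CPM, whereas HSP90AB1 overlapped, at 3505 to 5619 CPM against 5013 to 5735 CPM. The share of eef1a1l1 overlapped between the sets, at 0.496% to 0.756% in the concentrated and 0.494% to 0.550% in the even samples.

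**Figure D2:**
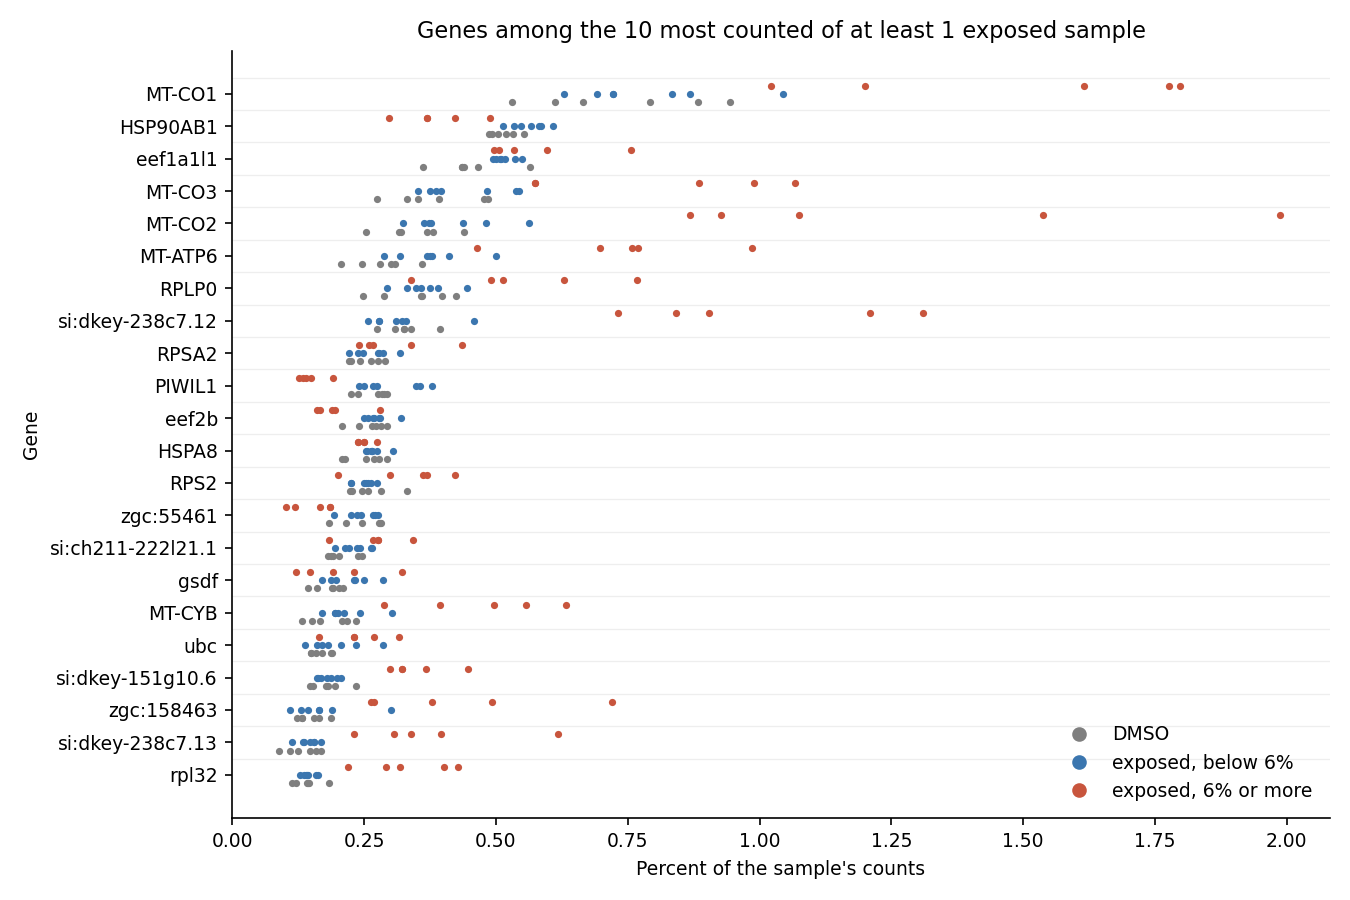
Percent of a sample's counts held by each of the 22 genes that were among the 10 most counted of at least 1 exposed sample; each point is a sample. The concentrated samples reach 1.99% for MT-CO2 and 1.31% for si:dkey-238c7.12, and lie below the even samples for PIWIL1 and HSP90AB1.

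All 13 protein-coding genes of the mitochondrial genome together held 3.80%, 4.79%, 6.90%, 7.22% and 5.89% of counts in the 5 samples, 2.21% to 3.56% in the even samples and 1.68% to 2.94% in DMSO. The concentrated samples were above every even and DMSO sample. With them left out of the counts and the total, the 10 most counted of the other genes held 4.60% to 5.77% in the same 5 samples and at most 3.69% in the even ones.

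The following gene by gene comparison describes the chosen samples and carries no test, because the samples were chosen by values from the same libraries. A gene was counted as higher or lower when no concentrated sample overlapped an even sample of its own concentration, at 3 nM and at 10 nM, and its difference, fitted with concentration as covariate, was at least 1. Of 22511 genes with at least 1 CPM in at least 2 of the 12 samples, 998 (4.43%) were higher and 1727 (7.67%) lower in the concentrated samples. The median difference over all these genes was 0.05, and 535 of the higher genes lay above all 13 other RNA samples, DMSO included, while 1340 of the lower genes lay below all 13. For 993 of the 998 and 1711 of the 1727, the range of the even samples overlapped that of DMSO. This overlap was not counted over all genes, so it is not read as a trait of the counted ones.

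At 3 nM alone, with 2 samples against 4, 1505 of 21396 genes (7.03%) were higher and 1888 (8.82%) lower by the same kind of count. At 10 nM alone, with 3 against 3, 1921 of 21824 (8.8%) were higher and 2221 (10.2%) lower. The differences at the 2 concentrations come from different samples and correlated across genes with Pearson's r = 0.69, which is a description over 22511 genes that are not independent and that share the choice by 1 measure. Among the 5, 10 nM replicate 6 was usually the least displaced: it was the sample nearest to the even ones for 598 of the 998 higher and 1253 of the 1727 lower genes. Without it, 1655 genes were higher and 2242 lower. The median displacement of the higher genes from the even samples was 1.22, 1.37, 1.67, 1.67 and 0.79 in the 5 samples, and that of the lower genes -1.48, -1.43, -1.84, -1.90 and -0.91.

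**Figure D3:**
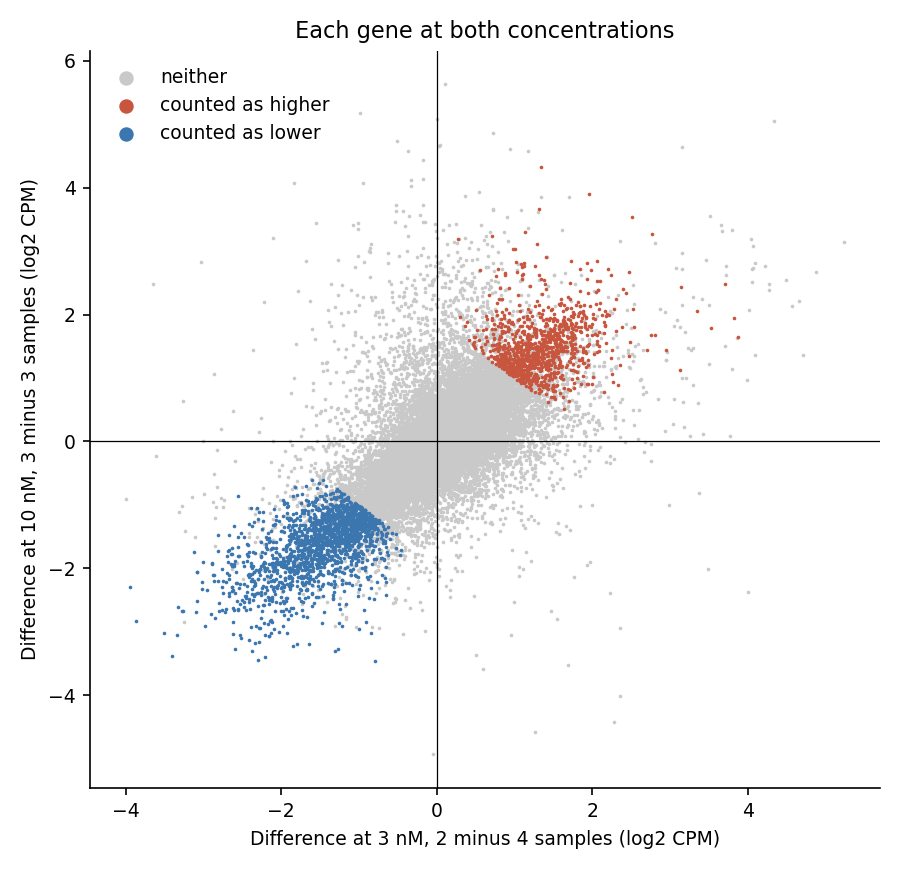
Difference between concentrated and even samples for each of the 22511 genes, at 3 nM (horizontal, 2 minus 4 samples) and at 10 nM (vertical, 3 minus 3 samples), in log2 CPM; coloured points are the 998 genes counted as higher and the 1727 counted as lower. The points spread along the diagonal (r = 0.69), and the coloured sets are cut by the rule that the fitted difference be at least 1.

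Ranked among named genes that averaged at least 5 CPM over the 12 samples, the 12 largest positive differences included a structural RNA, an ATP synthase subunit gene and immune genes. The gene rn7sl1 (ENSDARG00000087732), the RNA scaffold of the signal recognition particle that guides secreted proteins to the endoplasmic reticulum, stood at 107, 83.5, 85.1, 121 and 49.7 CPM in the 5 samples. Even samples ran from 6.09 to 20.3 CPM, with a median of 10.6, and DMSO from 5.97 to 13.0. All 5 were above every other sample, by a fitted difference of 3.04 (residual SD 0.50). NECAB1, a calcium-binding protein gene, showed a similar spread, at 37.0, 43.3, 52.9, 65.3 and 20.9 CPM against 6.62 to 10.9 CPM in the even samples and 6.47 to 11.9 CPM in DMSO, a difference of 2.27.

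For other genes of this set, 1 or 2 of the 5 samples lay far above the rest. The gene tmsb5 stood at 450.5, 57.6, 71.8, 79.0 and 12.8 CPM, and even samples at 8.22 to 18.8 CPM. Its fitted difference of 2.61 rests most on 3 nM replicate 4, and the value of 10 nM replicate 6 lies within the range of the even samples at 3 nM. The metallothionein gene MT1X, whose product binds metals, stood at 138, 27.9, 39.8, 39.7 and 18.1 CPM against 6.2 to 14.1 CPM (difference 2.19), again highest in 3 nM replicate 4. The gene nkl.2, which encodes an NK-lysin, an antimicrobial peptide of cytotoxic lymphocytes, stood at 17.5, 26.3, 313, 132 and 36.7 CPM against 3.64 to 10.3 CPM (difference 2.99). It was above every even sample in all 5 and highest in 10 nM replicate 1. The other genes of the 12 largest were si:ch73-379f5.5, lectin, si:dkey-229d11.5, ifitm1, KLHL41, atp5mea and si:dkeyp-46h3.2, with differences of 2.15 to 2.92.

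By the same rule, the 12 largest negative differences included genes of the cytoskeleton, of cell surface receptors and of chromatin. The centrosomal gene cdk5rap2 (ENSDARG00000024219), which helps to nucleate microtubules, stood at 4.39, 4.70, 3.79, 3.81 and 9.87 CPM. Even samples ran from 25.6 to 83.4 CPM, with a median of 52.6, and DMSO from 41.3 to 74.4 CPM. The sets were far apart, with a fitted difference of -3.25 (residual SD 0.59), and 10 nM replicate 6 was the highest of the 5. FRMD4A, a scaffold of epithelial polarity, stood at 1.77, 1.65, 0.588, 1.36 and 5.76 CPM against 10.3 to 29.9 CPM (difference -3.19). DOT1L, a histone H3 methyltransferase, stood at 2.04, 3.46, 1.55, 1.81 and 5.89 CPM against 11 to 26.5 CPM (difference -2.74). SOX9, a transcription factor of Sertoli cells, stood at 2.63, 5.48, 1.55, 2.33 and 9.34 CPM against 14.7 to 33.1 CPM (difference -2.67). In each of these genes the 5 samples lay below all 7 even samples, and 10 nM replicate 6 was nearest to them. The remaining genes of the 12 were MET, herc7, plxnb3, tnrc6bb.1, fam169ab, nckap5l, DDR1 and LCAT, with differences of -2.90 to -2.64.

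All 67 cytosolic ribosomal protein genes had a positive difference, from 0.38 to 1.72 with a median of 0.76, beside 0.05 over all genes, and 17 of 67 were counted as higher (25.4%, beside 4.43% of all genes) and 0 as lower. Their summed level ran from 107400 to 141800 CPM in the concentrated samples, 58500 to 79130 CPM in the even samples and 57650 to 81480 CPM in DMSO. RPLP0, RPS2 and rpl32 of this list were in the top 10 of some concentrated samples and so part of the share. RPL37, a protein of the large subunit, stood at 3111, 3117, 3785, 4373 and 1912 CPM, against 803 to 1293 CPM in the even samples. RPS23 of the small subunit had a difference of 1.58 and RPL27 of 1.54. These genes have close copies elsewhere in the genome, and the sources used here do not say how such reads were counted.

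Of the 13 mitochondrial genome genes 8 were higher (61.5%, beside 4.43% of all genes) and 0 lower, with a median difference of 1.15. The higher ones include MT-CO1, MT-CO2, MT-CO3, MT-ATP6 and MT-CYB, which helped to set the share. Since the share chose the samples, this count is not independent of the choice. MT-ND3, a complex I subunit gene, stood at 835, 1013, 1415, 2073 and 786 CPM against 232 to 464 CPM in the even samples (difference 1.94). Of 24 kept nuclear respiratory chain genes in the list chosen with the other lists, 4 were higher and 0 lower (16.7% and 0%), the median was 0.35 and 7 had a negative difference. A family of 84 kept subunit genes of the respiratory chain and the ATP synthase was assembled by symbol after values had been seen. The same holds for the other families named below. Of the 84, 24 were higher (28.6%) and 0 lower, 6 had a negative difference, and the median was 0.76. COX7C of cytochrome c oxidase stood at 456, 453, 610.0, 577 and 256 CPM against 148 to 205 CPM (difference 1.40), with no overlap. UQCRQ of complex III had a difference of 1.57 and ndufa5 of complex I one of 1.80. Mitochondrial ribosomal protein genes numbered 7 higher and 0 lower of 73 (9.6% higher), with 7 negative differences and a median of 0.55, and mrps21 was at 1.86. Of the 26 kept Sm and LSm genes, whose small proteins form the core of splicing particles, 7 were higher (26.9%) and 0 lower. Their median was 0.60. SNRPE stood at 408, 515, 579, 680 and 173 CPM against 103 to 164 CPM (difference 1.73).

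Dynein is the motor that pulls along microtubules, in the cytoplasm and in the sperm tail, and it is built of very large heavy chains and small light chains. All 13 heavy chain genes had a negative difference, from -2.1 to -0.40 with a median of -0.98. Of these, 6 were counted as lower (46.2%, beside 7.67% of all genes) and 0 as higher. DYNC1H1, the heavy chain of cytoplasmic dynein, stood at 52.8, 49.8, 36.0, 35.8 and 126 CPM, and even samples at 176 to 299 CPM. DNAH1, a heavy chain of the sperm tail, stood at 126, 106, 88.7, 96.4 and 227 CPM against 374 to 559 CPM (difference -1.86). Of 14 kept light chain genes, 2 were higher (14.3%, beside 4.43% of all genes) and 0 lower. Among the 14, 3 had a negative difference, and the median was 0.85. The contrast between heavy and light chains was not tested, and 7 of 13 heavy and 12 of 14 light chain genes were counted as neither. DYNLRB1, a light chain shared by dyneins, stood at 51.9, 70.6, 99.2, 75.4 and 22.9 CPM against 12.2 to 32.1 CPM (difference 1.70). It overlaps the even samples only across concentrations, in 10 nM replicate 6.

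The receptor and chromatin families were assembled after values had been seen, so their direction is a description only. Members counted as lower outnumbered those counted as higher, as they did over all genes (1727 lower, 998 higher). Of 52 kept receptor tyrosine kinase genes, 16 were lower (30.8%, beside 7.67% of all genes) and 0 higher, with a median of -0.48. MET, the receptor of hepatocyte growth factor, stood at 1.57, 2.43, 0.855, 0.387 and 6.37 CPM against 6.92 to 18.5 CPM (difference -2.90). Its lowest values rest on few counts. DDR1, a collagen receptor, had a difference of -2.64, tyro3 one of -2.60 and KIT, the stem cell factor receptor, one of -1.19. Among semaphorin receptors, 3 of 13 plexin genes were lower (23.1%) and 0 higher, with a median of -0.52, and plxnb3 was at -2.84. Spectrin and ankyrin genes, which line membranes, numbered 5 lower (38.5%) and 0 higher of 13, with a median of -0.65.

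Histone lysine methyltransferase genes numbered 5 lower (17.9%, beside 7.67% of all genes) and 0 higher of 28, with a median of -0.55. EZH2, the catalytic subunit of Polycomb repressive complex, stood at 29.8, 31.5, 21.4, 18 and 42.6 CPM against 63.3 to 99.4 CPM (difference -1.45), with no overlap. Of 24 genes for Jumonji demethylases and TET dioxygenases, which remove histone and DNA methyl marks, 8 were lower (33.3%) and 0 higher. Their median was -0.58. TET1 stood at 0.628, 0.618, 0.855, 0.258 and 1.44 CPM against 2.1 to 7.55 CPM (difference -2.52), and its lowest values rest on few counts. The gene tet3 was at -2.13. Chromodomain helicase genes had 0 higher and 1 lower of 11 (9.1% lower), with a median of -0.75, and 8 negative and 3 positive differences. Their summed level ran from 719 to 983 CPM in the concentrated and 1128 to 1543 CPM in the even samples. Proteasome subunit genes had 2 higher and 2 lower of 47 (4.3% each), with a median of 0.37. Transcript lengths and RNA integrity were not analysed here.

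**Figure D4:**
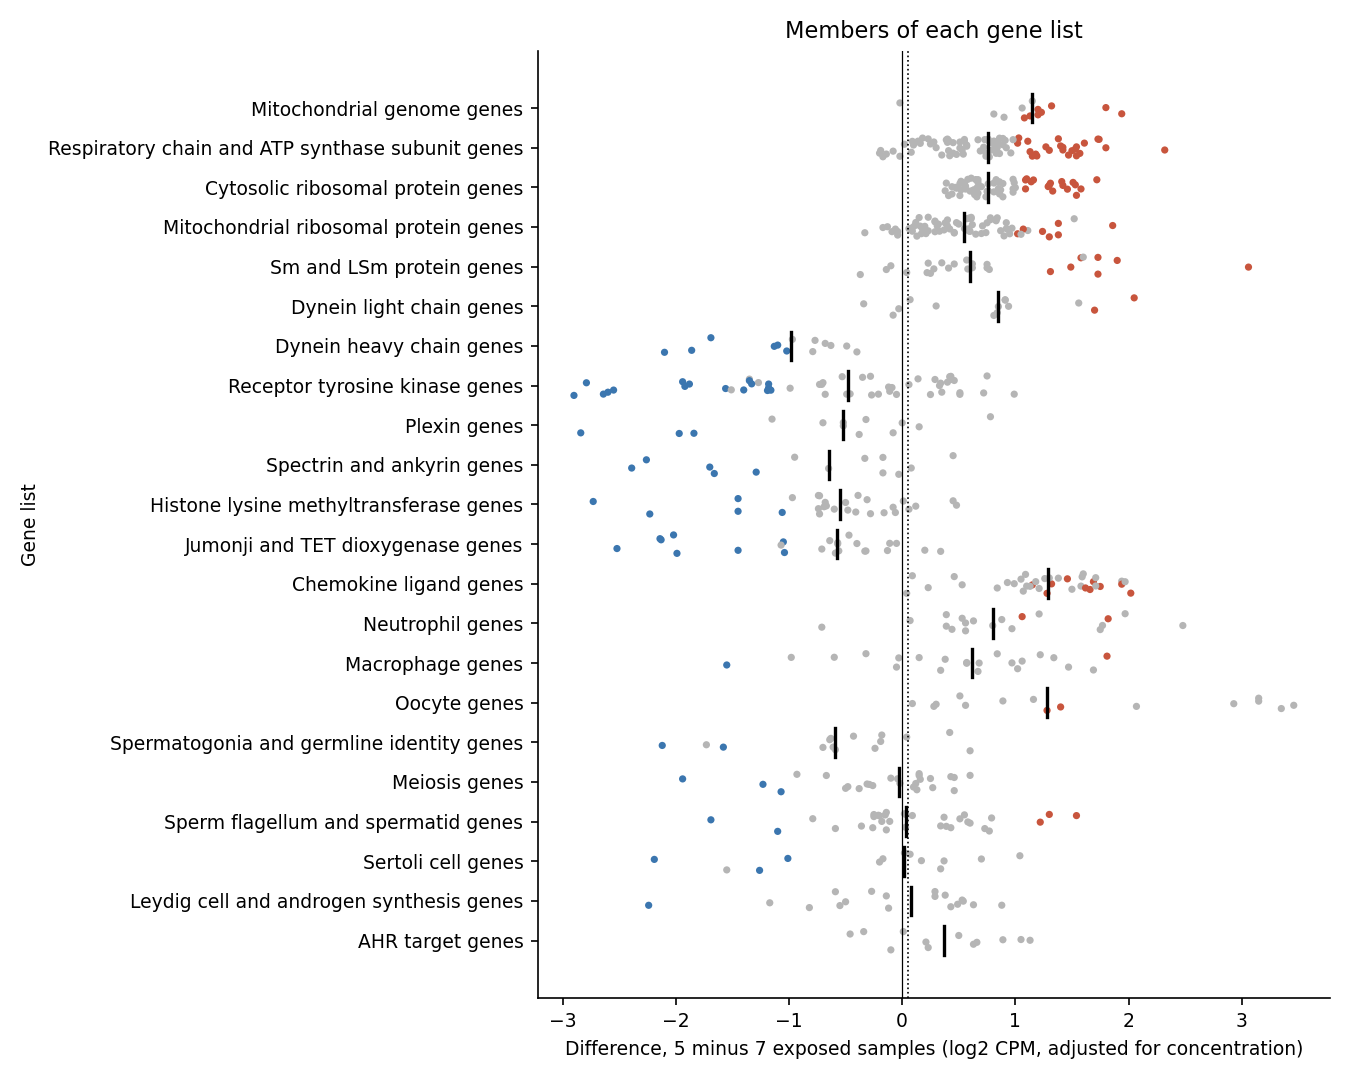
Difference between concentrated and even samples for each member of 22 gene lists, in log2 CPM adjusted for concentration; red points were counted as higher, blue as lower and grey as neither, black bars are list medians and the dotted line is the median of all genes (0.05). Cytosolic ribosomal protein genes lie wholly to the right of 0 and dynein heavy chain genes wholly to the left, and the lists of testis cell types straddle 0.

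The germ cell lists were short, with 15 kept spermatogonia and germline identity genes, 26 meiosis genes and 33 sperm flagellum and spermatid genes. Over all genes 4.43% were higher and 7.67% lower, and the small counts of the lists of testis cells are to be read beside these shares. Of 15 kept spermatogonia and germline identity genes, 2 were lower (13.3%) and 0 higher, with a median of -0.59. SALL4, a transcription factor of spermatogonia, stood at 6.2, 4.82, 5.24, 2.2 and 6.02 CPM against 10.1 to 18.7 CPM (difference -1.58). LIN28A, an RNA-binding protein of undifferentiated germ cells, had a difference of -2.12 at low levels, with 0.218 to 0.549 CPM against 1.21 to 2.84 CPM. PIWIL1, counted as neither, had one of -0.70. Summed, the list ran from 6539 to 8567 CPM in the concentrated samples, 8427 to 11070 CPM in the even samples and 7987 to 9600 CPM in DMSO.

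Meiosis genes had 3 lower and 0 higher of 26, where 7.67% of all genes were lower, and a median of -0.03. The lower ones were the meiotic cohesin genes stag3 and rec8a and the crossover gene shoc1. The large cohesin subunit gene stag3 stood at 36.8, 41.1, 17.1, 18.3 and 72.9 CPM against 99.99 to 222 CPM (difference -1.94). SYCP3, of the chromosome axis, stood at 315, 127, 177, 162 and 157 CPM, within the even range of 111 to 257 CPM except in 3 nM replicate 4.

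Sperm flagellum and spermatid genes had 3 higher and 2 lower of 33, with a median of 0.03. These are 9.1% and 6.1%, beside 4.43% and 7.67% of all genes. MEIG1, needed for sperm formation in mice, stood at 477, 512, 655, 583 and 195 CPM against 119 to 210 CPM (difference 1.54). ROPN1L, of the fibrous sheath of the sperm tail, had a difference of 1.3. The 2 lower genes were dnah9 and DNAH2, both dynein heavy chains also counted above, and dnah9 stood at 86.8, 75.4, 48.7, 73.9 and 130 CPM against 178 to 447 CPM (difference -1.69). With so few counted genes on either side, no direction is read for this list.

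Of 13 kept Sertoli cell genes, 3 were lower (23.1%) and 0 higher, with a median of 0.02. These were gata4, a transcription factor, inha, the inhibin alpha subunit, and FSHR, the follicle-stimulating hormone receptor. The inhibin gene inha stood at 20.1, 32.7, 12.3, 14.9 and 22.6 CPM against 38.8 to 62.3 CPM (difference -1.26). In contrast gsdf, a Sertoli cell growth factor of fish, ranged from 1419 to 3700 CPM in the concentrated and 1660 to 2677 CPM in the even samples, a difference of 0.06. The 18 Leydig cell and androgen synthesis genes had a median difference of 0.08. The Leydig cell hormone gene insl3 stood at 266, 272, 125, 168 and 104 CPM against 115 to 342 CPM in the even samples, so the sets overlapped (difference -0.14).

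Chemokine ligand genes had 10 higher (27.8%, beside 4.43% of all genes) and 0 lower of 36 kept. Their median was 1.29, and all 36 had a positive difference. The family has 50 identifiers, and a member that passed the level filter only where it was high had to lie on the higher side. The chemokine gene ccl19a.1 stood at 57.8, 61.8, 130, 180 and 96.3 CPM against 17.0 to 62.0 CPM (difference 1.66), and ccl20b was at 2.02. Of 19 kept neutrophil genes, 2 were higher and 0 lower (10.5% higher), with a median of 0.41 at 3 nM and 1.27 at 10 nM. At 10 nM alone 10 of 18 were higher and 0 lower, beside 8.8% and 10.2% of all genes. At 3 nM alone 0 of 19 were higher and 1 lower, beside 7.03% and 8.82%. The difference between concentrations was not tested for this or any other list. The lysozyme gene lyz stood at 5.84 and 11.9 CPM in the pair at 3 nM and at 587, 756 and 93.0 CPM in the 3 at 10 nM. Even samples ran from 5.59 to 24.7 CPM, so only the 10 nM samples stood out. The collagenase gene mmp13a was also above the even range only at 10 nM, at 0.981, 3.46, 351, 131 and 25.6 CPM against 1.37 to 6.06 CPM.

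Macrophage genes had 1 higher and 1 lower of 22 (4.5% each), beside 4.43% and 7.67% of all genes. Their medians were 0.05 at 3 nM and 1.14 at 10 nM. At 10 nM alone 12 of 22 were higher and 2 lower, beside 8.8% and 10.2% of all genes. At 3 nM alone 0 of 20 were higher and 2 lower, beside 7.03% and 8.82% of all genes. The gene lower at both concentrations was csf1ra, the receptor through which macrophages are maintained, at 0.588, 0.742, 2.88, 1.55 and 2.23 CPM against 1.87 to 6.29 CPM. The gene higher at both, fcer1gl, stood at 5.33, 6.63, 36.2, 42.2 and 35.7 CPM against 1.89 to 7.44 CPM. Summed neutrophil markers ran from 831 to 2484 CPM in the concentrated, 584 to 782 CPM in the even and 582 to 888 CPM in the DMSO samples, and summed macrophage markers from 325 to 1194, from 292 to 491 and from 325 to 663 CPM. T and NK cell genes had 2 higher (10.5%, beside 4.43% of all genes) and 0 lower of 19. Their medians were 0.33 at 3 nM and 0.31 at 10 nM. B cell genes had 2 higher and 0 lower of 8 (25.0% higher, beside 4.43% of all genes). That list has 10 identifiers, and the limit of the level filter given for chemokine genes holds for it too. The part of immune cells in the share was not tested.

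Some markers of oocytes and of other tissues were high in 1 or 2 of the 5 samples. Oocyte genes had 2 higher (13.3%, beside 4.43% of all genes), figla and zp3c, and 0 lower of 15. Their median was 1.28, and all 15 had a positive difference. A member that passed the level filter only where it was high had to lie on that side. The egg coat gene zp3a.1 was high in 3 nM replicate 4 and 10 nM replicate 5, and stood at 114, 1.28, 1.23, 21.7 and 3.80 CPM against 0.307 to 7.00 CPM in the even samples. The summed oocyte list ran from 193 to 849 CPM in the concentrated, 176 to 211 CPM in the even and 146 to 183 CPM in the DMSO samples. The intestinal cadherin gene CDH17 stood at 3.10, 2.43, 106, 122 and 3.93 CPM, against 2.15 to 30.6 CPM in the even samples. It was above the even range in 10 nM replicates 1 and 5. The jacalin gene jac2 stood at 0.745, 3.96, 3.79, 11.9 and 325 CPM, against 0.177 to 10.9 CPM in the even samples. The summed intestinal list was highest in an even sample, at 48.4 to 772 CPM in the even, 70.9 to 380.5 CPM in the concentrated and 49.5 to 94.2 CPM in the DMSO samples. Pancreas acinar genes ran from 485 to 3284 CPM in sum in the concentrated samples, 148 to 3617 CPM in the even and 157 to 5638 CPM in the DMSO samples. Their ranges overlapped widely. Lists of pancreas, liver, kidney tubule, intestinal epithelium, erythrocyte and epithelial keratin genes held 0 genes counted as higher and 0 as lower at both concentrations. At 3 nM alone 7 of 12 pancreas and 2 of 10 erythrocyte genes were higher, beside 7.03% of all genes. At 10 nM alone 0 of 13 pancreas, 3 of 13 intestinal, 3 of 10 erythrocyte, 2 of 16 liver and 2 of 15 keratin genes were higher, beside 8.8%. None of these lists had a lower gene at either concentration. The part of adjoining tissue in the split was not tested.

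No AHR target gene differed at both concentrations. Of 12, 0 were higher and 0 lower, with a median of 0.37. CYP1A1 stood at 414 and 1001 CPM in the concentrated samples at 3 nM, and the 4 even ones there ran from 409 to 827 CPM. At 10 nM the concentrated samples stood at 2542, 2516 and 2442 CPM and the even ones at 815, 1339 and 1124 CPM. The differences were 0.02 at 3 nM and 1.22 at 10 nM, with no overlap at the higher concentration only. At 10 nM alone 4 of the 12 targets were higher and 0 lower, beside 8.8% and 10.2% of all genes. Within a concentration the dose in the water was the same for both sets, and tissue doses are not part of the data used here. CYP1B1 and ahrra, the AHR repressor gene, overlapped between the sets, with differences of -0.46 and -0.10. Further lists had 0 to 2 members counted in each direction, beside 4.43% higher and 7.67% lower over all genes. Immediate early genes had 1 higher of 18 (5.6%), JUND at 1.45, and 0 lower. Cell cycle genes had 2 lower of 31 (6.5%), CENPF and mki67, and 0 higher, and heat shock and unfolded protein genes 1 lower of 21 (4.8%), DNAJB5, and 0 higher. Interferon response genes had 2 higher and 2 lower of 24 (8.3% each), with medians of 0.39 at 3 nM and 0.26 at 10 nM. The transferrin receptor gene tfr1a, which takes up iron, was at -2.22.

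The 6 DMSO samples, which played no part in choosing the samples or the genes, gave the same measure without exposure. Their share varied only from 3.45% to 4.70%. The slope of each gene's level on the share, in log2 per percentage point, was fitted over them with edgeR's quasi-likelihood test. Of 24021 genes, 0 (0%) passed an adjusted p under 0.05, and 1417 had an unadjusted p under 0.05. DESeq2 called 52 of 16266. The 5 genes with the smallest p were dnaaf2, ROCK2, tmem184bb.2, DDHD1 and ubxn11, with slopes of -2.54 to -1.03 and edgeR adjusted p of 0.166 to 0.774.

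The direction of the slopes leaned the same way as the exposed split. Of the 965 higher genes with a slope in DMSO, 677 had a positive and 288 (29.8%) a negative one, and of the 1727 lower genes 468 (27.1%) had a positive and 1259 (72.9%) a negative one. Over all 22249 genes with a slope, 49.8% were positive and 50.2% negative. No p was computed, since genes are not independent. DMSO replicate 3 had the highest share, and without it the counts were 695 of 955 and 1212 of 1727. Without replicate 2, which had the lowest share, they were 610 of 963 (63.3%) and 1130 of 1727 (65.4%), the smallest shares among the 6 omissions. All 67 cytosolic ribosomal protein genes and all 13 mitochondrial genome genes had positive slopes, with medians of 0.36 and 0.71, but the most abundant of these are also part of the share itself. All 13 dynein heavy chain genes had negative slopes, with a median of -0.65, while 75 of 84 respiratory chain and ATP synthase genes, and 20 of 24 in the smaller nuclear respiratory chain list, had positive ones.

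Not every list leaned this way. The 52 receptor tyrosine kinase genes divided into 26 positive and 26 others, with a median slope of -0.01. Of 14 dynein light chain genes, 3 had a positive slope, with a median of -0.22, and all 33 sperm flagellum genes had negative slopes, with a median of -0.55. Pancreas acinar genes did lean the same way, with 12 of 13 differences in the exposed split and all 13 slopes positive. Their median slope of 4.44 comes from a summed level that ran from 157 to 5638 CPM over the DMSO samples.

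**Figure D5:**
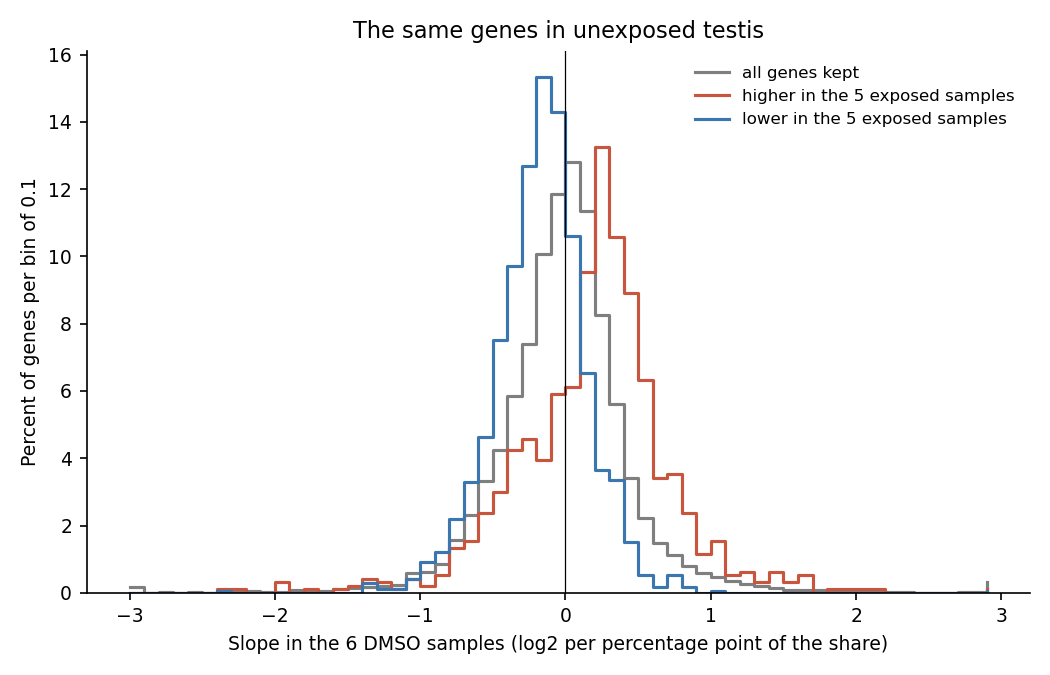
Distribution of gene slopes on the top 10 share over the 6 DMSO samples (horizontal, log2 per percentage point; values beyond 3 are put in the outermost bins), as percent of genes per bin of 0.1, for all genes kept and for those counted as higher or lower in the concentrated exposed samples. The higher genes are shifted to the right (677 of 965 positive) and the lower genes to the left (1259 of 1727 negative), and both distributions overlap that of all genes.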

How the data were processed

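RNA of 18 testis samples was analysed. The authors deposited raw counts, as whole numbers, for each gene. Tools named without versions per the submitters' processing notes are FastQC, STAR, HTSeq and edgeR, with build GRCz10. Libraries were stranded, with single-end reads of 50 bases, per the labels' protocols. Since nothing states whether the counting used strand, overlapping antisense genes and close paralogs are uncertain. Each table holds 35117 identifiers, 27000 of which matched a symbol (some in human-style capitals), and 0 rows name no gene. Counting error was small beside the spread between samples at 16.2 to 29.8 M counts (M, 1000000) per library, and no 2 replicates agreed within counting noise (lowest chi-square per degree of freedom 17.3).

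CPM used TMM totals, and log2 CPM a prior count of 2. Differences came from a linear fit with concentration as covariate over genes with at least 1 CPM in at least 2 of 12 samples. Slopes in DMSO came from edgeR 4.0.16 in R 4.3.3 (4 residual degrees of freedom, Benjamini-Hochberg over all genes, threshold 0.05, checked on simulated data), with DESeq2 1.42.0 as an alternative. Alternatives covered scaling, filter, prior count, covariate, threshold and samples.

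Samples, 31 gene lists and the tests were chosen with earlier results of these data known, and 13 families after values were seen. Named genes were those in any top 10, the 12 largest differences each way (symbol, mean of at least 5 CPM), up to 3 per list by largest difference (mean of at least 1 CPM), CYP1A1, CYP1B1 and ahrra, and the 5 smallest p-values in DMSO. Other genes named were chosen after their values were seen. A result of the rule is not reported here, and no p is given for the share between exposure groups, since the share chose the samples. The methylation tables give group means only and were not used here.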

Additional observations from a re-analysis of the deposited data

Results flagged for a closer look

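A sample was picked out where, among the 6 of its labelled group, the highest or lowest value lay far from its nearest neighbour relative to the whole range (Dixon's criterion at 95%). Of 291 groups of 6 examined for the values and genes named above, 25 met it. Chance alone gives about 14.6 for unselected, independent values. Many genes here were named for differences between these same samples, so the 25 cannot be read against it. Many of the picked values were of 3 nM replicate 4, one of the concentrated samples: tmsb5 at 450.5 CPM, si:dkey-229d11.5 at 191.1 CPM, MT1X at 138.4 CPM, zp3a.1 at 113.6 CPM, lectin at 112.0 CPM, si:dkeyp-46h3.2 at 73.26 CPM, zp3c at 25.77 CPM and KLHL41 at 22.79 CPM. Each of these was the highest value at 3 nM.

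Other concentrated samples stood out for single genes. At 10 nM, replicate 1 was highest for mmp13a at 351.3 CPM, replicate 5 for zp3a.1 at 21.7 CPM and for si:dkey-229d11.5 at 12.79 CPM, and replicate 6 for jac2 at 325.3 CPM and si:ch73-379f5.5 at 96.82 CPM. At 3 nM, replicate 6 was highest for ccl20b at 18.75 CPM.

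Even samples stood out for 3 genes. ROCK2 was at 98.03 CPM in 3 nM replicate 5 and at 94.48 CPM in 10 nM replicate 3. CDH17 was at 30.57 CPM in 3 nM replicate 1, and jac2 at 10.94 CPM in 3 nM replicate 5.

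In DMSO, replicate 3 had the lowest library total, 16.24 M counts, and the highest NECAB1, 11.95 CPM. Replicate 1 was apart for insl3 at 1155 CPM, HSP90AB1 at 5726 CPM and LCAT at 44.01 CPM, replicate 2 for nkl.2 at 5.784 CPM and replicate 6 for KLHL41 at 23.81 CPM.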

How the results depend on the processing

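Named genes counted as higher or lower kept their sign under the alternatives. Their selection for separated sets made this nearly certain, so it says nothing on robustness. Of the values of all named genes, 3958 of 4048 stayed within the residual SD and 90 moved further. The count of higher genes, 998, became 647 with a threshold of 5%, 1921 with 7%, which leaves only the 10 nM samples (also 1921 when these were taken alone), 1505 with 3 nM samples alone and 2721 without a minimum difference, where lower genes became 3419. The single-concentration counts and the one without a minimum difference were chosen after seeing the data. Leaving out 1 sample gave 934 to 1655 higher and 1606 to 2242 lower genes, the highest of both without 10 nM replicate 6. Other settings kept both counts within 1.5 times: 688 and 1507 without the covariate, 1158 and 1973 with a replicate block. In DMSO, edgeR's 0 called genes became 1 with the share of 50 genes and 52 with DESeq2, and 0 without any 1 sample. For the share, leaving out 1 sample gave 1.52 to 2.02 points for exposed samples and 2.02 to 3.09 at 10 nM. It gave 0.771 to 1.32 at 3 nM and 0.912 to 1.98 between concentrations. Leaving out mitochondrial genes gave 0.83 points for exposed samples, 1.07 at 10 nM, 0.586 at 3 nM and 0.488 between concentrations. Library totals differed by -1.29 to 0.65 M (exact permutation p 0.49 to 0.96), and turned sign without 3 nM replicate 2 (0.0767), 3 (0.183) or 6 (0.247) or 10 nM replicate 4 (0.437) or 5 (0.65). A replicate block leaves the mean excess in the share at 2.60 points at 10 nM and 1.1 at 3 nM by arithmetic. That setting is therefore no check of these means. The labels share replicate numbers. Same-numbered samples correlated at -0.578 to 0.378, and 4 of 18 correlated best with their own number, so no pairing was seen. The check cannot exclude pairing, because same-numbered samples can lie on opposite sides of the split. Replicates 1, 4 and 5 did so between 3 and 10 nM, at -0.104, -0.513 and -0.578. The cause of these shifts was not tested. With 5 chosen samples, 2 of them at 3 nM, and 6 DMSO samples that span a narrow range of the share, small differences could not be resolved.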
